A study of Homo sapiens with 8 samples.

Results

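Transcription of 4 long non-coding RNA (lncRNA) genes studied in cancer, UCA1, LUCAT1, NEAT1 and MALAT1, was followed by PRO-seq in HCT116 cells with and without HIF1A, in normoxia and after acute hypoxia. The 4 genes were found by their symbols among the 23193 genes in the deposited tables. They were selected on readouts of these same data, with the response of WT cells to hypoxia already known, so that response is described here for them and not tested. PRO-seq counts the RNA polymerases that are engaged on a gene, by letting them add labelled nucleotides in isolated nuclei, and therefore reads transcription and not the amount of RNA that has built up.

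HCT116 is an established human colorectal carcinoma line, and HIF1A is the oxygen-regulated subunit of the transcription factor HIF1. The 4 groups were WT cells in normoxia, WT cells in hypoxia, HIF1A-/- cells in normoxia and HIF1A-/- cells in hypoxia, each with 2 biological replicates, 8 libraries in all. Hypoxia was 1% O2 for 90 min, and every culture received the vehicle DMSO. In the HIF1A-/- line, part of HIF1A had been removed by homologous recombination with an adeno-associated virus vector. There was 1 line per genotype, so the loss of HIF1A and any other difference between the lines cannot be told apart. As in any bulk measurement, fewer cells transcribing a gene and fewer polymerases per cell cannot be told apart either.

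Each gene was counted in 2 regions on GRCh37. The TSS region covers 551 bp around the transcription start site and holds polymerase that has initiated or paused, while the gene body starts about 1 kb downstream and holds elongating polymerase. Gene body totals ran from 18125234 to 23622392 reads per library and TSS totals from 2783581 to 5966348. Replicate 2 of WT hypoxia was the deepest library in both tables. Values below are CPM, the usual read count scaled to the total of the respective table, and all 4 genes passed the filter on low counts in both. The gene body of HIF1A itself had 129 to 164 CPM in the 4 WT libraries and 141 to 172 CPM in the 4 HIF1A-/- libraries. The gene body lies mostly outside the removed part, so these reads do not check the genotype. All 6 epithelial markers were transcribed in every library, the lowest value being 13.3 CPM for CLDN4. Of 8 markers of blood, fibroblast, endothelial and liver cells, CD3E and PECAM1 were at 0 in at least 1 library and never exceeded 8 and 4 reads, whereas COL1A1 ran from 18.95 to 50.3 CPM.

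UCA1, first described in urothelial carcinoma, is a mostly cytoplasmic transcript that has been linked to proliferation and drug resistance. LUCAT1 was found in lung cancer and in airway cells exposed to smoke, and is known as a stress-responsive transcript. NEAT1 is the architectural RNA of paraspeckles, nuclear bodies that assemble on its long isoform, and MALAT1 is an abundant nuclear RNA that accumulates in nuclear speckles, where splicing factors are stored. HIF1 binds DNA at the core motif ACGTG or GCGTG.

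The windows from 250 bases before to 50 bases after the deposited start sites are shown so that the promoters of the 4 genes can be read side by side. Capitals mark 4 searched motifs on either strand: the HIF core motifs ACGTG and GCGTG, the AP-1 motif TGANTCA, and TGACNNNGC, the core of the NRF2 element, which can overlap an AP-1 motif. The windows lie at chr19:15939506-15939805 on the plus strand for UCA1, chr5:90610170-90610469 on the minus strand for LUCAT1, chr11:65190018-65190317 on the plus strand for NEAT1 and chr11:65264958-65265257 on the plus strand for MALAT1, all on GRCh37, and are written in the direction of transcription.
UCA1: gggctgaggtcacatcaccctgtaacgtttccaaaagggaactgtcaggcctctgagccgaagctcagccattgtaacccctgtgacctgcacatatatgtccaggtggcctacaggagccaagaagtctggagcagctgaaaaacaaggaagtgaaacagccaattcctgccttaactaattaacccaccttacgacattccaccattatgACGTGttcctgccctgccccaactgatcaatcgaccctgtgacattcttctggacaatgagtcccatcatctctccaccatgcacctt
LUCAT1: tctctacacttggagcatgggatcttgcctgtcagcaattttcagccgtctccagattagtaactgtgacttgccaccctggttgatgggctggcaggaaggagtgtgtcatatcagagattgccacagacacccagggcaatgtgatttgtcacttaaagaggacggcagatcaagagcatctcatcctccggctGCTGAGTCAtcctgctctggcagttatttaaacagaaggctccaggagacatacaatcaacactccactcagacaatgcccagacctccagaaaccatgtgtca
NEAT1: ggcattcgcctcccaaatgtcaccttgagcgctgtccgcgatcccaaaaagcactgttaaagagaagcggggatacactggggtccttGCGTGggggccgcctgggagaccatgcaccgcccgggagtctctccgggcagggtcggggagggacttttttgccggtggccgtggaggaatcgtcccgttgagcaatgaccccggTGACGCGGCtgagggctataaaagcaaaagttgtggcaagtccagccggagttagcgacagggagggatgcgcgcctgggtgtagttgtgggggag
MALAT1: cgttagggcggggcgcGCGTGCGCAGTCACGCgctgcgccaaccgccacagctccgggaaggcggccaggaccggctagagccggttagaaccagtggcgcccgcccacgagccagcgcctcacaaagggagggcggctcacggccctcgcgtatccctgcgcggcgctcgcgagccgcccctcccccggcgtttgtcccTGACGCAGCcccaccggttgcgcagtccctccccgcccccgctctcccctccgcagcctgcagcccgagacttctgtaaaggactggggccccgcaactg

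With the start base as position 0, the UCA1 window held 1 ACGTG, at position -38, and no other searched motif. The LUCAT1 window held no HIF core motif. It held an AP-1 motif at -52 inside an NRF2 element core at -54 on the opposite strand. The NEAT1 window held 1 GCGTG at -162 and 1 NRF2 element core at -46. The MALAT1 window held 2 GCGTG motifs, at -234 and on the opposite strand at -223. It also held 2 NRF2 element cores, on the opposite strand at -230 and on the same strand at -50. Of the windows of the same length at all 23193 deposited start sites, 22.5% held ACGTG, 41.1% GCGTG and 53.0% either of them, while 6.70% held the AP-1 motif and 13.5% the NRF2 element core. The matches are letters in a window and show no binding. The GC content was 50.3% for UCA1, 49.7% for LUCAT1, 62.0% for NEAT1 and 73.7% for MALAT1, against a median of 60% over all windows.

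The counted gene bodies differ in how much of each locus they cover. For UCA1 (chr19:15940757-15947131, plus strand) the body covers 78.5% of the span of the gene in GENCODE, and 49.4% of its bases are exonic. The LUCAT1 body (chr5:90606730-90609218, minus strand) is a 2489 bp stretch that takes in 0.958% of a much longer annotated span. The NEAT1 body (chr11:65191269-65194003, plus strand) has 2735 bp and lies at the 5′ end, where both isoforms are transcribed. It takes in 12.01% of the annotated span, and most of what only the long isoform covers was not counted. The MALAT1 body (chr11:65266209-65273987, plus strand) takes in 74.6% of the span, is exonic throughout, and has 59 annotated transcript starts inside it. RefSeq (GRCh38.p14) lists 2 MALAT1 starts. Matched by sequence to GRCh37, one lies 1 base from the deposited start and the other 1308 bases downstream, inside the counted gene body.

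Gene body levels, compared per kb of length, followed the same order in all 4 groups: MALAT1, NEAT1, UCA1 and LUCAT1. In WT normoxia the level was 105 ± 1.58 CPM per kb (SD, n = 2) for MALAT1, 65.2 ± 1.00 for NEAT1, 7.30 ± 1.34 for UCA1 and 1.59 ± 0.881 for LUCAT1. Only 15 and 33 of the 16686 gene bodies tested were denser than MALAT1 and NEAT1 in that group. UCA1 had 1047 denser genes and LUCAT1 7191. Neighbours in this order did not overlap within any group. In the TSS region the order was different, with NEAT1 at 382 ± 56.3 CPM per kb, MALAT1 at 197 ± 54.6, UCA1 at 125 ± 54.8 and LUCAT1 at 9.80 ± 6.34 in normoxic WT cells. There the libraries of MALAT1 (158 and 236) and UCA1 (86.7 and 164) overlapped.

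UCA1 had a higher gene body CPM in each hypoxia library than in the normoxia libraries of the same genotype. In WT cells its gene body had 40.5 and 52.6 CPM in the replicates of normoxia and 86.8 and 182 CPM in those of hypoxia. The groups did not overlap, and replicate 2 of hypoxia stood far above replicate 1. Without HIF1A it had 62.0 and 70.7 CPM in normoxia and 101 and 102 CPM in hypoxia, again with no overlap. HIF1A-/- normoxia also lay above WT normoxia, and HIF1A-/- hypoxia between the WT hypoxia libraries.

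LUCAT1 was the lowest of the 4 genes in every group, with its lowest group means in HIF1A-/- cells. Its gene body had 2.42 and 5.52 CPM in normoxic WT cells, from 50 and 100 reads, and 7.06 and 16.04 CPM in hypoxic WT cells, from 134 and 379 reads. In HIF1A-/- normoxia it had 1.09 CPM in each replicate, from 24 and 23 reads, and in hypoxic HIF1A-/- cells 2.11 and 2.81 CPM, from 43 and 57 reads. Hypoxia lay above normoxia in each genotype without overlap, and each HIF1A-/- library of normoxia lay below each WT library of normoxia. The share of all gene bodies that separate between the lines in normoxia, as LUCAT1 and UCA1 did, was not counted.

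The NEAT1 and MALAT1 genes, the densest of the 4, differed less between the oxygen levels. The NEAT1 gene body had 180.2 and 176 CPM in normoxic WT cells and 208 and 228 CPM in hypoxic WT cells, which did not overlap. The HIF1A-/- line had 192 and 197 CPM in normoxia and 186 and 202 CPM in hypoxia, where the normoxia libraries lay between those of hypoxia. The MALAT1 gene body had 810.1 and 827 CPM in normoxic WT cells, 714 and 998 in hypoxic WT cells, 1252 and 819 in normoxic HIF1A-/- cells and 1265 and 827 in hypoxic HIF1A-/- cells. Replicate 1 of both HIF1A-/- groups was the highest for MALAT1, and the ranges of all 4 groups overlapped.

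**Figure D1:**
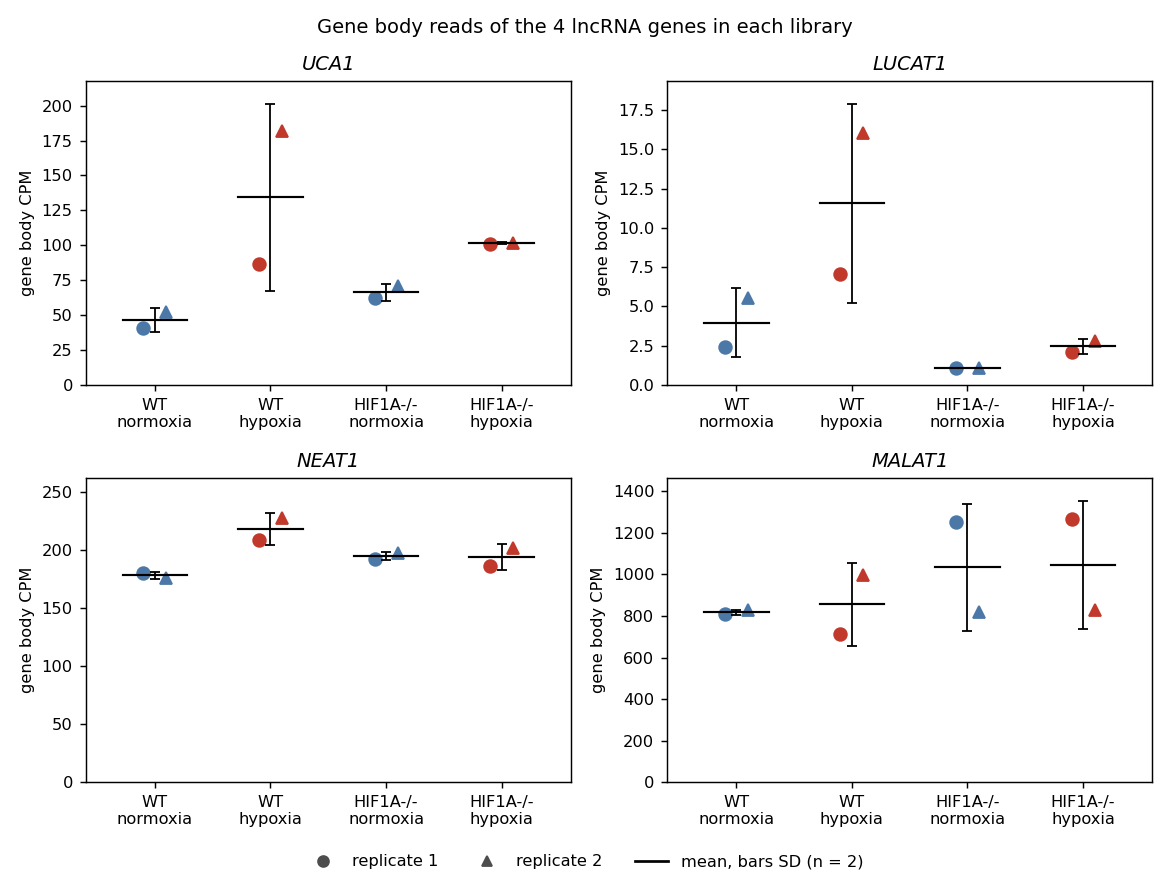
Gene body CPM (y axis, from 0) of UCA1, LUCAT1, NEAT1 and MALAT1 in the 4 groups (x axis); circles are replicate 1, triangles replicate 2, horizontal lines the mean and bars the SD (n = 2), with normoxia in blue and hypoxia in red. UCA1 and LUCAT1 are higher in both hypoxia libraries than in both normoxia libraries of each genotype, with WT hypoxia replicate 2 highest at 182 and 16.04 CPM, and MALAT1 is at 1252 and 1265 CPM in replicate 1 of the HIF1A-/- groups.

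In WT cells, the fitted gene body log2 fold change of hypoxia against normoxia was 1.495 for UCA1 (standard error 0.30), 1.52 for LUCAT1 (0.48), 0.26 for NEAT1 (0.11) and 0.03 for MALAT1 (0.30). These values chose the genes and are given as a description. Among the 16686 gene bodies tested, 135 had a larger log2 fold change than UCA1, 127 than LUCAT1, 3562 than NEAT1 and 7225 than MALAT1. The values of UCA1 and LUCAT1 moved with single libraries: without replicate 2 of WT hypoxia the log2 fold change was 0.89 for UCA1 and 0.83 for LUCAT1, and without replicate 1 it was 1.93 and 1.99. LUCAT1 also moved with WT normoxia, to 2.21 without its replicate 2 and 1.05 without its replicate 1. The ratio of same-numbered libraries was 2.14 and 3.46 for UCA1 and 2.92 and 2.91 for LUCAT1. Over all genes, edgeR called 0.431% of gene bodies higher in hypoxic WT cells at an FDR of 10%, 5.51% in either direction with the replicate number as a block, and 19.8% had both hypoxia libraries above both normoxia libraries, as 3 of the 4 lncRNA genes did. Since the genes were chosen on this contrast, nothing is read from that count.

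Whether the 4 genes respond to hypoxia without HIF1A was tested in HIF1A-/- cells. None of the 4 gene bodies passed edgeR's test. The log2 fold change was 0.58 for UCA1 (standard error 0.30), 1.13 for LUCAT1 (0.53), -0.05 for NEAT1 (0.11) and -0.03 for MALAT1 (0.30), and each adjusted p was 1. Over all gene bodies, 0% were called in this comparison, 175 were higher and 172 lower at an unadjusted p under 0.05, and DESeq2 called 8. With the replicate block the adjusted p was 0.404 for LUCAT1 and 0.471 for UCA1. Hypoxia lay above normoxia without overlap for UCA1 and LUCAT1, 2 of 4 genes, as for 14.4% of all gene bodies tested. The response in WT cells minus that in HIF1A-/- cells was 0.92 for UCA1 (standard error 0.42), 0.39 for LUCAT1 (0.72), 0.31 for NEAT1 (0.16) and 0.06 for MALAT1 (0.42) on the log2 scale. It contains the WT response that chose the genes and was not tested.

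The levels before hypoxia were compared between the lines to see whether the 4 genes differ by line in normoxia. The WT normoxia libraries also enter the contrast that chose the genes, so the p-values of this comparison, for the gene body, the TSS and the pausing index, are not independent of that choice. The LUCAT1 gene body went from 3.97 ± 2.19 CPM in WT cells to 1.09 ± 0.00218 in HIF1A-/- cells (SD, n = 2). The second SD comes from 24 and 23 reads and does not measure their counting error. The gene body log2 fold change of LUCAT1 was -1.85 in HIF1A-/- against WT cells (standard error 0.53), but the adjusted p of 0.242 from edgeR did not pass. With the replicate numbers as a block it was -1.78 (standard error 0.36) and passed, with an adjusted p of 0.0239, and it also passed in DESeq2 (adjusted p = 0.0332). Without replicate 2 of WT normoxia it was -1.15. Over all gene bodies 1.78% were called in this comparison, 10.3% with the block and 3.78% by DESeq2. UCA1 (log2 fold change 0.51, standard error 0.30, adjusted p = 0.758 in edgeR), MALAT1 (0.35, 0.30, 0.908) and NEAT1 (0.13, 0.11, 0.916) did not pass. In hypoxia the same contrast was -2.24 for LUCAT1 (standard error 0.50), -0.41 for UCA1 (0.29), -0.18 for NEAT1 (0.11) and 0.29 for MALAT1 (0.30), which is given without a test because it uses the WT hypoxia libraries.

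**Figure D2:**
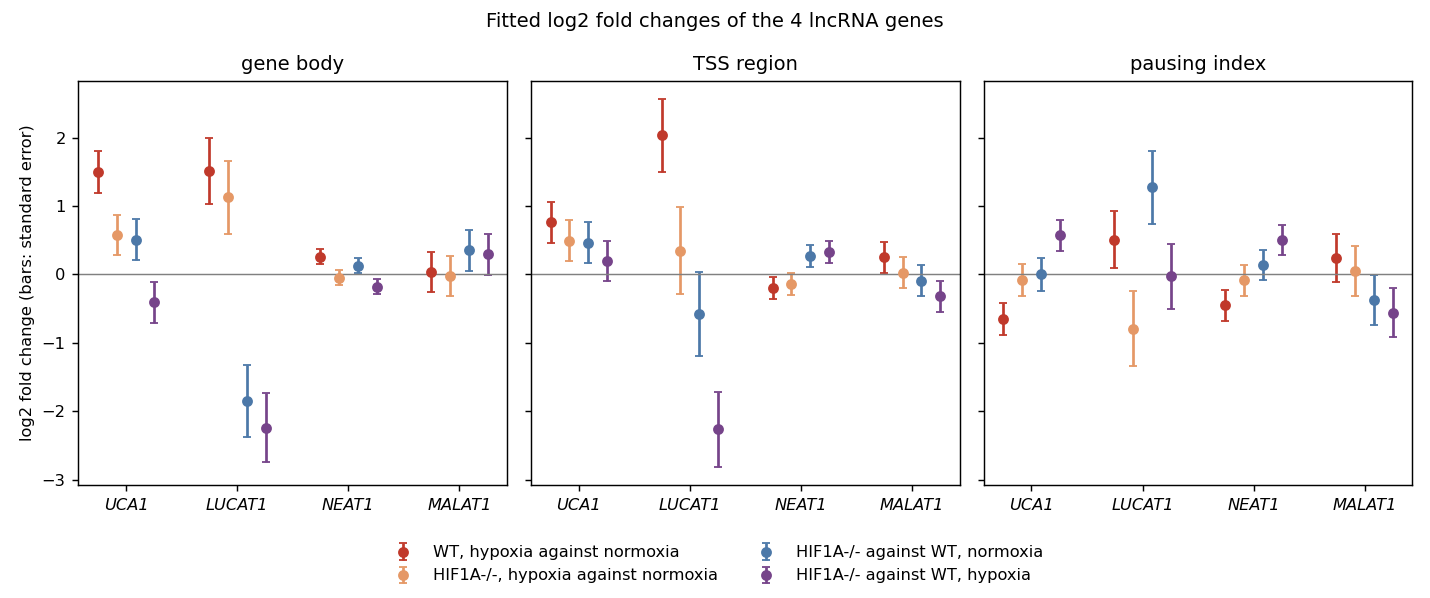
Fitted log2 fold changes (y axis, points with the standard error as bars) of the 4 genes (x axis) for the gene body, the TSS region and the pausing index, in 4 contrasts of the 8 libraries given by colour. The gene body of LUCAT1 lies at 1.52 in hypoxic WT cells and at -1.85 in HIF1A-/- against WT normoxia, UCA1 at 1.495 in hypoxic WT cells and 0.58 in hypoxic HIF1A-/- cells, and the NEAT1 and MALAT1 gene bodies between -0.18 and 0.35.

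At the TSS, LUCAT1 had 2.93 and 7.87 CPM in normoxic WT cells and 12.6 and 29.8 CPM in hypoxic WT cells, but 3.23 and 3.73 CPM in normoxic HIF1A-/- cells and 5.64 and 3.51 CPM in hypoxic HIF1A-/- cells. The hypoxia libraries of WT cells lay above the normoxia libraries, and those of HIF1A-/- cells overlapped them. The counts were small, from 9 reads in replicate 1 of HIF1A-/- normoxia to 178 in replicate 2 of WT hypoxia. UCA1 had 47.8 and 90.5 CPM in normoxic WT cells, 83.5 and 144 in hypoxic WT cells, 98.1 and 90.0 in normoxic HIF1A-/- cells and 146 and 119 in hypoxic HIF1A-/- cells. For UCA1 the WT groups overlapped at the TSS, with hypoxia over normoxia ratios of 1.75 and 1.597 between same-numbered libraries, and the HIF1A-/- groups did not overlap. NEAT1 had 232 and 189 CPM in normoxic WT cells, 189 and 171 in hypoxic WT cells, 275 and 226 in normoxic HIF1A-/- cells and 242 and 214 in hypoxic HIF1A-/- cells. MALAT1 had 87.2 and 129.8 CPM in normoxic WT cells, 106 and 146 in hypoxic WT cells, 87.7 and 113 in normoxic HIF1A-/- cells and 96.6 and 108 in hypoxic HIF1A-/- cells. For MALAT1 and NEAT1 the groups overlapped in both genotypes. The share of all TSS regions without overlap was not counted, so nothing is read from the separations of LUCAT1 and UCA1.

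**Figure D3:**
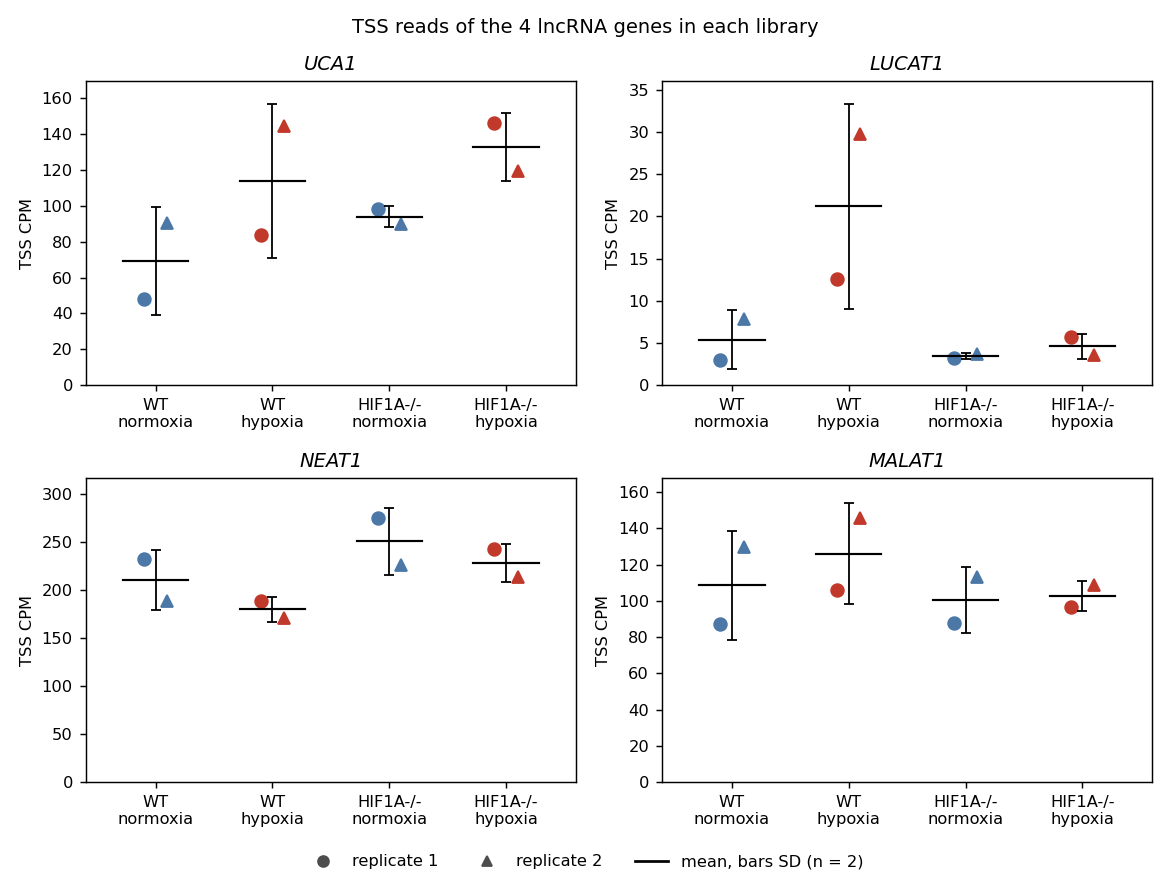
TSS CPM (y axis, from 0) of the 4 genes in the 4 groups (x axis), with circles for replicate 1, triangles for replicate 2, lines for the mean and bars for the SD (n = 2); normoxia is blue and hypoxia red. LUCAT1 reaches 29.8 CPM in hypoxic WT cells and at most 5.64 CPM in hypoxic HIF1A-/- cells, whereas the groups of MALAT1 overlap.

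The WT log2 fold change at the TSS was 2.03 for LUCAT1 (standard error 0.53), 0.76 for UCA1 (0.30), -0.20 for NEAT1 (0.16) and 0.25 for MALAT1 (0.22), again as a description. In HIF1A-/- cells it was 0.35 for LUCAT1 (0.63), 0.49 for UCA1 (0.30), -0.14 for NEAT1 (0.16) and 0.02 for MALAT1 (0.23), and edgeR's adjusted p was 1 for each. Over all TSS regions 0% were called in hypoxic HIF1A-/- cells by edgeR, with 77 higher and 58 lower at an unadjusted p under 0.05, and none by DESeq2. In normoxia, HIF1A-/- against WT cells differed by -0.58 for LUCAT1 (0.61, adjusted p = 0.831 in edgeR), 0.46 for UCA1 (0.30, 0.725), 0.27 for NEAT1 (0.16, 0.701) and -0.09 for MALAT1 (0.23, 0.938), so none of the 4 passed, as against 0.657% of all TSS regions that were called. Without replicate 2 of WT normoxia the LUCAT1 value turned to 0.28.

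The pausing index, the density of the TSS region over that of the gene body, each per bp and scaled by the total of its own table, was low for all 4 genes. Its median over all genes ran from 44.4 to 49.1 in the 8 libraries. In WT normoxia the index was 16.8 ± 4.43 (SD, n = 2) for UCA1, 5.96 ± 0.680 for LUCAT1, 5.86 ± 0.773 for NEAT1 and 1.87 ± 0.491 for MALAT1. The shares of genes with a lower index were 24.5%, 9.61%, 9.39% and 2.61% in the same order. Before scaling by the table totals, MALAT1 had more reads per kb in its gene body than at its TSS in all 8 libraries, for example 2156 against 702 in replicate 1 of WT normoxia. The body of MALAT1 contains the second RefSeq start and 59 annotated starts, as given above, and their part in this index was not tested.

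The index of UCA1 was 13.6 and 19.9 in normoxic WT cells and 11.1 and 9.20 in hypoxic WT cells, and that of NEAT1 was 6.40 and 5.31 in normoxic WT cells and 4.49 and 3.72 in hypoxic WT cells. Both were lower in hypoxic WT cells without overlap. The share of all genes whose index separates in this way was not counted, so nothing is read from it. Without HIF1A, UCA1 had 18.3 and 14.7 in normoxia and 16.8 and 13.5 in hypoxia, and NEAT1 had 7.10 and 5.68 in normoxia and 6.46 and 5.26 in hypoxia, which overlapped for both. The WT log2 change of the index was -0.66 for UCA1 (standard error 0.23), -0.45 for NEAT1 (0.22), 0.51 for LUCAT1 (0.42) and 0.24 for MALAT1 (0.36), given without a test. LUCAT1 went the other way from UCA1, with an index of 5.48 and 6.44 in normoxic WT cells and 8.08 and 8.40 in hypoxic WT cells.

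In HIF1A-/- cells the log2 change of the index in hypoxia was -0.09 for UCA1 (standard error 0.23), -0.80 for LUCAT1 (0.55), -0.09 for NEAT1 (0.22) and 0.05 for MALAT1 (0.37), each with an adjusted p of 1 in edgeR, where 0% of all genes were called and 108 were higher and 121 lower at an unadjusted p under 0.05. In normoxia the index of LUCAT1 was 13.4 and 15.5 in HIF1A-/- cells, above both WT libraries. The log2 difference from WT cells was 1.28 (standard error 0.53), which did not pass in edgeR (adjusted p = 0.760), and that of UCA1 was 0.0026, of NEAT1 0.14 and of MALAT1 -0.37, with adjusted p from 0.913 to 1. Over all genes 0.0759% were called. The LUCAT1 index in normoxia rests on 9 and 16 TSS reads in HIF1A-/- cells and on 13 and 30 in WT cells. The share of all genes whose index separates between the lines in normoxia was not counted. Nothing is therefore read from the LUCAT1 separation.

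**Figure D4:**
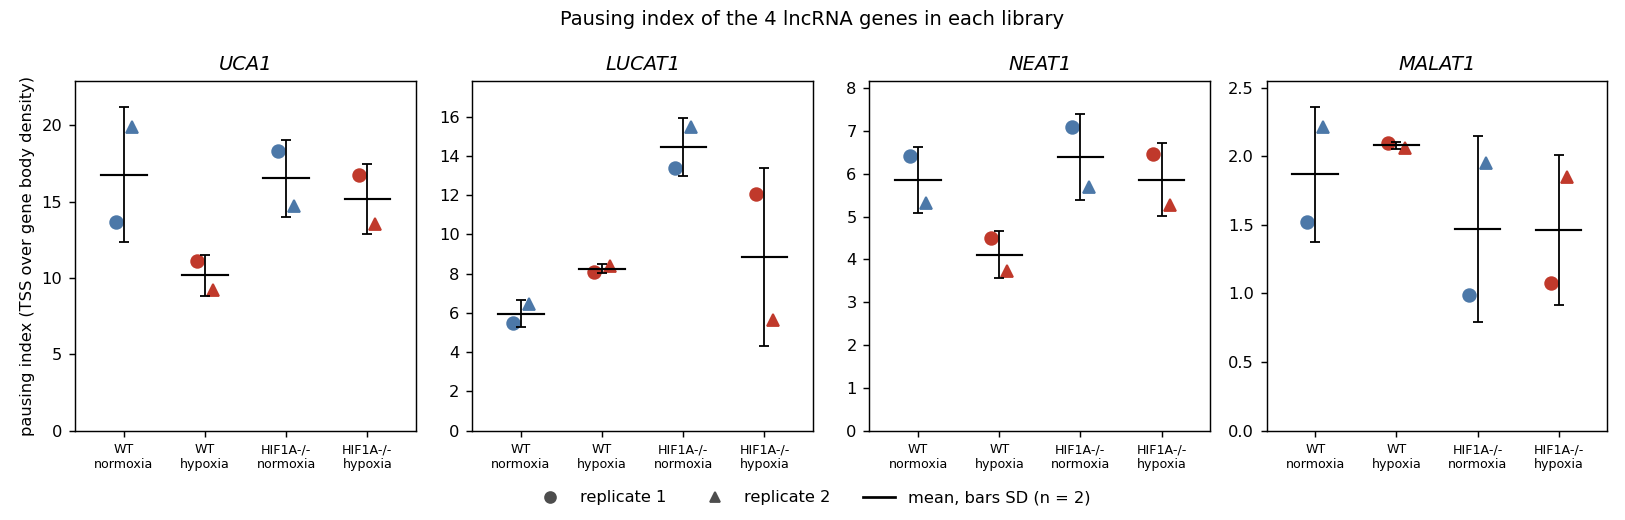
Pausing index (y axes from 0, each gene on its own scale) of the 4 genes in the 4 groups (x axis), with circles for replicate 1, triangles for replicate 2, lines for the mean and bars for the SD (n = 2). UCA1 is at 13.6 and 19.9 in normoxic WT cells and at 11.1 and 9.20 in hypoxic WT cells, and LUCAT1 is highest in normoxic HIF1A-/- cells at 13.4 and 15.5.

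The genes around the 4 loci were examined next, to see whether they moved with them. Within 200 kb of the start sites lay 25 other genes, of which 24 passed the filter. In WT hypoxia edgeR called 0 of the 24, with 3 higher and 0 lower at an unadjusted p under 0.05. Over all 16686 gene bodies, 585 were higher and 184 lower at that p. DESeq2, which called 1.05% of all gene bodies, called 1 of the 24. The median log2 fold change was 0.08, against -0.02 over all gene bodies. With the replicate block, which called 5.51% of all gene bodies, 3 of the 24 were called, and these, named after their values were seen, were ARRDC3, ARRDC3-AS1 and LTBP3.

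ARRDC3, which encodes an alpha-arrestin, starts 69.0 kb upstream of LUCAT1 on the same strand. It had 104 and 118 CPM in normoxic WT cells, 178 and 267 in hypoxic WT cells, 68.2 and 95.4 in normoxic HIF1A-/- cells and 77.1 and 109.7 in hypoxic HIF1A-/- cells. Like LUCAT1 it was higher in hypoxic WT cells without overlap, as were 19.8% of all gene bodies tested. Replicate 2 lay above replicate 1 in each of its 4 groups. In HIF1A-/- cells its groups overlapped. The log2 fold change in hypoxic WT cells was 0.97 (standard error 0.23; adjusted p = 0.342 in edgeR), and the adjusted p was 0.0035 with the replicate block and 0.0130 in DESeq2. The antisense gene ARRDC3-AS1, 65.9 kb from LUCAT1, was at 0.55 (0.24) on that scale (adjusted p = 0.897, or 0.0633 with the block). The HIF1A-/- response was 0.15 for ARRDC3 (0.23) and 0.13 for ARRDC3-AS1 (0.24), both with an adjusted p of 1. LUCAT1 has no other gene within the 200 kb in these tables.

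Around UCA1 lies a cluster of CYP4F genes, which encode cytochrome P450 enzymes that hydroxylate fatty acids and eicosanoids. None of its 6 tested neighbours was called in hypoxic WT cells, where their log2 fold changes ran from -0.25 for CYP4F2 to 0.78 for CYP4F3. Both had few reads, at 0.483 to 1.16 CPM for CYP4F2 and 0.821 to 2.37 CPM for CYP4F3 in the WT libraries. In HIF1A-/- against WT normoxia, LINC01835 (36.0 kb downstream on the other strand) and CYP4F11 (106 kb) were called higher by edgeR. LINC01835 had 14.5 and 16.4 CPM in normoxic WT cells and 36.8 and 43.8 CPM in normoxic HIF1A-/- cells, which is 1.38 higher on the log2 scale (standard error 0.25, adjusted p = 0.0480). CYP4F11 had 13.4 and 15.3 CPM in normoxic WT cells and 34.6 and 32.7 CPM in normoxic HIF1A-/- cells, which is 1.23 higher (0.22, adjusted p = 0.0472). CYP4F3 (1.62, adjusted p = 0.263) and CYP4F12 (1.34, adjusted p = 0.479) did not pass in edgeR without the block and passed with it (0.0363 and 0.0338). DESeq2, which had no block, also called CYP4F3 (adjusted p = 0.0949) but not CYP4F12 (0.301). CYP4F2 was at 1.04 (0.86) and LINC00661 at -1.15 (0.88), with an adjusted p of 0.902 and 0.873. LINC00661 had only 0.182 to 0.662 CPM in the normoxia libraries. UCA1 itself lay at 0.51 in the same comparison.

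NEAT1 and MALAT1 lie 74.9 kb apart on the same strand of chromosome 11, and share most of their tested neighbours. In WT hypoxia these neighbours ran from -0.58 for KCNK7, a potassium channel gene, to 1.27 for TALAM1, which is transcribed antisense to MALAT1. KCNK7 had only 0.677 to 1.49 CPM in the WT libraries. TALAM1 had only 5 to 28 gene body reads per library, against 13568 to 27540 for MALAT1 on the other strand, and had 0.531 and 0.276 CPM in normoxic WT cells, 0.842 and 1.19 in hypoxic WT cells, 0.318 and 0.473 in normoxic HIF1A-/- cells and 0.639 and 1.13 in hypoxic HIF1A-/- cells. In normoxia only replicate 1 of WT cells was over the 0.5 CPM of the filter. TALAM1 thus passed the filter only through its hypoxia libraries, and nothing is read from their lying above those of normoxia. Neither its 1.27 in WT cells (standard error 0.56, adjusted p = 0.897) nor its 1.11 in HIF1A-/- cells (0.56, adjusted p = 1) passed. LTBP3, which encodes a latent TGF-beta binding protein, was at 0.34 (0.13) in hypoxic WT cells, with an adjusted p of 0.897 and of 0.0955 with the block. The closest neighbours of NEAT1 upstream, FRMD8 and SLC25A45, were at -0.01 (0.18) and 0.10 (0.19). Another 10, POLA2, CDC42EP2, DPF2, TIGD3, FAM89B, EHBP1L1, MAP3K11, PCNX3, SIPA1 and RELA, which encodes the p65 subunit of NF-kB, lay between -0.35 and 0.25. In HIF1A-/- cells 0 of the 24 neighbours of all loci were called in hypoxia by edgeR or DESeq2, and 0 had an unadjusted p under 0.05 in edgeR. In HIF1A-/- against WT normoxia 2 of 24 were higher and 0 lower, LINC01835 and CYP4F11, against 1.78% of all gene bodies called. With the block 6 were higher and 2 lower, against 10.3%. EHBP1L1 (0.41, adjusted p = 0.0272) was among the higher, and ARRDC3 (-0.46, 0.0406) and SLC25A45 (-0.58, 0.0837) were the lower ones. DESeq2 called 4 higher, against 3.78%.

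**Figure D5:**
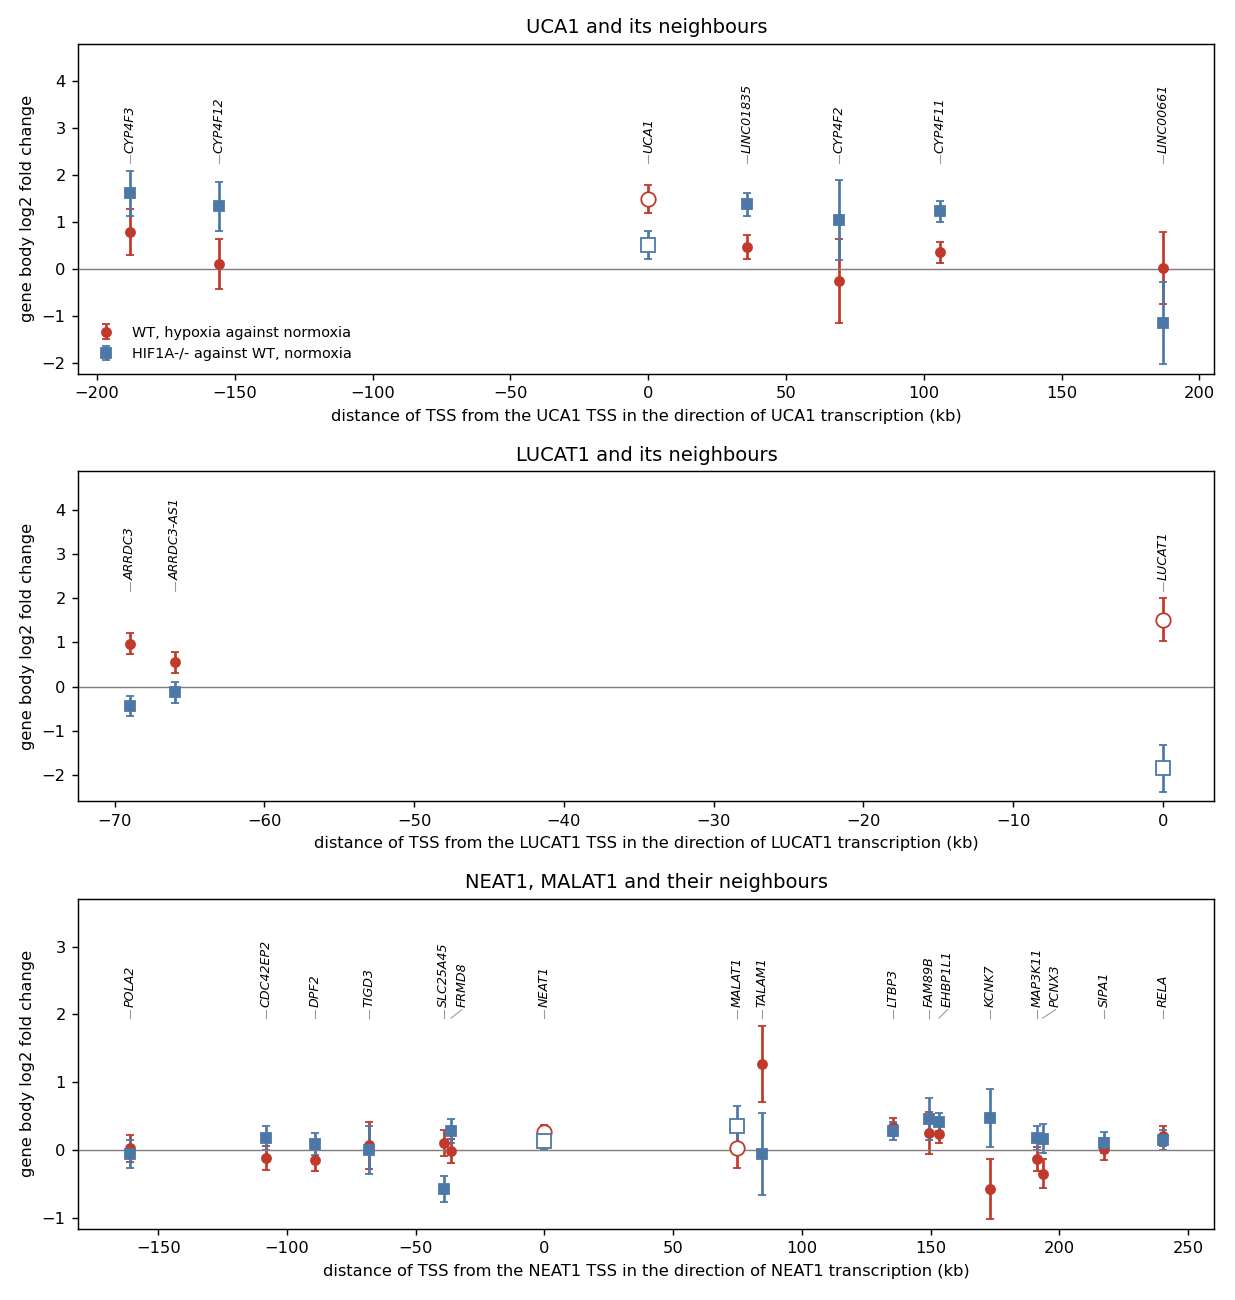
Gene body log2 fold changes (y axis, points with the standard error as bars) of the neighbouring genes reported here against the distance of their start from that of UCA1, LUCAT1 or NEAT1 in kb (x axis, positive in the direction of transcription); red circles are WT hypoxia against normoxia, blue squares HIF1A-/- against WT normoxia, and large open symbols the 4 lncRNA genes. LINC01835 and CYP4F11 lie at 1.38 and 1.23 in HIF1A-/- against WT normoxia near UCA1, ARRDC3 at 0.97 in hypoxic WT cells near LUCAT1, and the neighbours of NEAT1 and MALAT1 lie near 0 in hypoxic WT cells except TALAM1 at 1.27 and KCNK7 at -0.58. TALAM1 and KCNK7 had few reads.

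Genes for the proteins of the nuclear bodies that hold NEAT1 and MALAT1 were compared with them. Of 16 genes for paraspeckle proteins 15 passed the filter and none was called in hypoxic WT cells by edgeR or DESeq2, with none at an unadjusted p under 0.05. Of these, 13 were below 0 and 2 above, with a median log2 fold change of -0.09 against -0.02 over all gene bodies. The 3 with the smallest p were PSPC1 at -0.22 (standard error 0.14), EWSR1 at -0.24 (0.16) and SFPQ at -0.20 (0.15), each with an adjusted p of 0.897. PSPC1 and SFPQ encode core proteins that bind NEAT1, and EWSR1 an RNA-binding protein of the FET family. Without HIF1A the median was -0.07, against 0.00090 over all gene bodies, and none was called, with none at an unadjusted p under 0.05. Of 14 genes for nuclear speckle proteins all passed the filter and none was called in hypoxic WT cells, with a median of -0.06. At an unadjusted p under 0.05, 1 was higher and 0 lower in edgeR and in DESeq2. Over all 16686 gene bodies edgeR had 585 higher and 184 lower at that p, and DESeq2 617 and 191. The 3 speckle genes with the smallest p encode splicing factors, SRSF9 at 0.31 (0.12), SRSF3 at 0.12 (0.11) and SRSF5 at -0.20 (0.19). Without HIF1A none of the 14 was called either, with none at an unadjusted p under 0.05, and the median was -0.04.

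Other lncRNA genes studied in cancer were examined as a wider set. They were listed with earlier results of these data known, so their calls are not independent of those results. Of 43 listed, 42 were in the tables and 35 passed the filter. In WT hypoxia 0 were called by edgeR, with 15 above and 20 below 0 and a median of -0.09. At an unadjusted p under 0.05, 2 were higher and 0 lower, against 585 and 184 of all 16686 gene bodies. DESeq2 called LINC00511 (adjusted p = 0.0240), against 1.05% of all gene bodies, and the fit with the block called LINC00511 and HOTTIP (0.00308 and 0.0293), against 5.51%, the latter named after its values were seen. HOTTIP, transcribed from the distal end of the HOXA cluster, had 3.00 and 4.74 CPM in normoxic WT cells and 6.48 and 9.99 in hypoxic WT cells. In HIF1A-/- against WT normoxia LINC00511 was called lower by edgeR without the block and no other of the 35 was, against 1.78% of all gene bodies. With the block, against 10.3%, 5 were higher, TINCR (adjusted p = 0.0122), MIR22HG (0.0191), LINC-PINT (0.0468), H19 (0.0619) and CYTOR (0.0809), and 3 lower, LINC00511, LINC00963 (0.0675) and DLEU1 (0.0745), named after their values were seen. DESeq2, against 3.78%, called TINCR higher (0.0103) and LINC00511 lower. LINC00511 had 31.7 and 41.6 CPM in normoxic WT cells, 60.9 and 79.3 in hypoxic WT cells, 9.91 and 14.2 in normoxic HIF1A-/- cells and 14.9 and 18.9 in hypoxic HIF1A-/- cells. Its log2 fold change in HIF1A-/- against WT normoxia was -1.61 (standard error 0.22, adjusted p = 0.0167) and in hypoxic WT cells 0.91 (0.21, adjusted p = 0.359). As for LUCAT1, its 4 groups were ordered WT hypoxia, WT normoxia, HIF1A-/- hypoxia and HIF1A-/- normoxia by their means. In HIF1A-/- hypoxia none of the 35 was called by edgeR or DESeq2, with none at an unadjusted p under 0.05 in edgeR, and the median was 0.05.

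The markers of other cell types were summed to see whether they moved with UCA1 and LUCAT1. Of these, COL1A1, which the paper names among its acute response genes, had means of 29.6 CPM in normoxic and 44.3 CPM in hypoxic WT cells. The summed level of the 8 markers was 29.4 to 34.6 CPM in normoxic WT cells, 40.1 to 55.3 in hypoxic WT cells, 20.3 to 38.4 in normoxic HIF1A-/- cells and 25.8 to 47.7 in hypoxic HIF1A-/- cells, most of it from COL1A1. Of the 4 that passed the filter all were above 0 in hypoxic WT cells and none was called or had an unadjusted p under 0.05. Of those that did not pass, all near 0 CPM, CD3E and ALB had lower means in hypoxic WT cells and PTPRC and PECAM1 higher ones. The 6 epithelial markers summed to 855 to 969 CPM in normoxic WT cells, 959 to 1162 in hypoxic WT cells, 1090 to 1111 in normoxic HIF1A-/- cells and 1200 to 1223 in hypoxic HIF1A-/- cells. The part of these shifts in the values of the 4 lncRNA genes was not tested.

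The genes most like each lncRNA gene over the 8 libraries were found by Pearson's r of log2 CPM, as a description, since the libraries share replicate numbers and groups. For UCA1 they were WASF2 (r = 0.982), WBP4 (0.976) and TCAM1P (0.970), and for LUCAT1 CALD1 (0.990), CLDN7 (0.985) and ZNF25 (0.982). For NEAT1 they were LOC284930 (0.969), LINC00629 (0.958) and MSANTD3-TMEFF1 (0.958), and for MALAT1 PARVA (0.971), APBB2 (0.971) and CFLAR-AS1 (0.963). WASF2 encodes an actin regulator, CALD1 the actin-binding protein caldesmon, CLDN7 a tight junction protein and PARVA an adhesion protein. LUCAT1 had 337 gene bodies with r over 0.9, UCA1 and MALAT1 43 each, and NEAT1 16. Among the 4 genes themselves r was 0.756 for UCA1 and NEAT1, 0.528 for UCA1 and LUCAT1, and -0.296 for LUCAT1 and MALAT1.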

How the data were processed

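PRO-seq was analysed in 8 libraries, 2 per group, assigned to genotype, oxygen level and replicate from the sample titles. The deposited values are raw counts for each gene, produced by the authors using featureCounts (Subread 1.6.2) after alignment to GRCh37 with HISAT2 2.1.0 (versions from the submitters' processing notes). Libraries were strand-specific per the labels. The authors counted 1 TSS region and 1 gene body per gene, so other starts and isoforms of a gene are not told apart.

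The 4 genes and all lists were chosen with earlier results of these data known. Genes with over 0.5 CPM in at least 2 libraries were kept. After TMM scaling, edgeR 4.0.16 (R 4.3.3) ran its quasi-likelihood test (glmQLFit, glmQLFTest) in 1 fit of 4 group means over all 8 libraries per region. Benjamini-Hochberg adjustment covered every tested gene, and an FDR of 10% made a call. The pausing index was tested with TSS and gene body counts in 1 fit with a term for each library. The pausing index per library is a ratio of densities from the deposited counts, each scaled by its own table total. Scripts were tested on simulated data.

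The replicate numbers in the titles were taken to pair the libraries, since same-numbered libraries deviated together from their group means in every pair of groups (r over genes, gene bodies 0.493 to 0.844, TSS regions 0.217 to 0.522). The fit without this block is the one reported, and blocked values are given where a call changed for the 4 genes in the tested comparisons, the neighbours or the other lncRNA genes. Named genes were the 4 members, every neighbour within 200 kb that passed the filter (1 of these is counted but not reported here), of each list the genes called or else the 3 with the smallest p in WT hypoxia, and the 3 genes most correlated with each member (log2 CPM, prior count 2). Sequences were read from GRCh37. Alternatives were RLE size factors, library totals, DESeq2 1.42.0, no filter, CPM over 1 in at least 4 libraries, the replicate block, each library left out, and only the 4 libraries of a contrast.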

Additional observations from a re-analysis of the deposited data

How the results depend on the processing

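With the replicate numbers as a block, and in DESeq2, LUCAT1 in HIF1A-/- against WT normoxia passed for the gene body (log2 fold change -1.78 and -1.84), making 1 of the 4 genes called in each in place of 0, against 10.3% and 3.78% of all gene bodies. Its adjusted p ran from 0.0239 to 1.00 over all alternatives, the highest without replicate 2 of WT normoxia. In WT hypoxia DESeq2 called 1 and the block 2 of the other cancer lncRNAs, and DESeq2 called 1 and the block 3 of the neighbouring genes, against 1.05% and 5.51% of all gene bodies. The block changed no other call of the 4 genes in HIF1A-/- hypoxia or in HIF1A-/- against WT normoxia. MALAT1 in HIF1A-/- hypoxia was 0.0152 for the gene body with library totals. The UCA1 pausing index in HIF1A-/- against WT normoxia, 0.0026, turned to -0.0166 with library totals, -0.0225 without a filter, -0.0010 with CPM over 1 and -0.0041 with the replicate block.

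With each library left out in turn, log2 values that turned sign, none of them called, ran as follows. In HIF1A-/- hypoxia, MALAT1 ran from -0.40 to 0.37 for the gene body, -0.14 to 0.22 for the TSS and -0.46 to 0.59 for the pausing index, NEAT1 from -0.28 to 0.0167 for the TSS and -0.22 to 0.0355 for the index, UCA1 from -0.22 to 0.0303 for the index, and LUCAT1 from -0.0066 to 0.67 for the TSS. In HIF1A-/- against WT normoxia, MALAT1 ran from -0.0194 to 0.68 for the gene body, -0.36 to 0.23 for the TSS and -0.93 to 0.11 for the index, NEAT1 from -0.0122 to 0.25 and UCA1 from -0.29 to 0.29 for the index, and LUCAT1 from -1.15 to 0.28 for the TSS. In WT hypoxia, MALAT1 ran from -0.21 to 0.25 for the gene body and -0.0161 to 0.57 for the TSS. The cause of these changes was not tested. With 2 libraries per group, and under 20 TSS reads of LUCAT1 in each HIF1A-/- library, small differences were not detectable. Large ones could also fail to pass in edgeR without the block. The LUCAT1 gene body, at 2.18 times normoxia in HIF1A-/- hypoxia and 0.278 times WT in HIF1A-/- normoxia, did not pass in that fit. With the block only the latter passed.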
